A study of Mus musculus with 42 samples.

Results

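Zic1, Zic2, Zic4 and Zic5 were followed on arrays of mouse embryonic stem cells (mESCs) that were differentiated towards anterior definitive endoderm (ADE), the first gut tissue to form under the future head. The genes were found by their RefSeq accessions in the annotation of the array: NM_009573 for Zic1, NM_009574 for Zic2, NM_009576 for Zic4 and NM_022987 for Zic5. They make up 4 of 22201 accessions and are read by 6 of 55681 probes. Zic1 and Zic4 have 2 probes each, and all 6 are described because the probes of Zic1 did not give the same picture.

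The cells were of the HRS/Gsc-GFP line, mESCs in which GFP reports on Gsc and RedStar on Hhex, so that GSC (G) and HHEX (H) could be read by flow cytometry in living cells. The untreated series held ESC in LIF medium, unsorted cells of day 2 (d2), sorted G- and G+ cells of d3 and d4, sorted G-, Glow and Ghigh cells of d5, and sorted G+H- and G+H+ cells of d6. In the other series d6 cultures, for which the labels name no sort, were given the solvent DMSO before and during differentiation (Control), DMSO before and 2.5 μM EPZ6438 during differentiation (ADE_EPZ), or EPZ6438 before and DMSO during it (ES_EPZ). Each of the 14 groups had 3 arrays from 3 independent experiments, which makes 42 arrays of 1 reporter line. EPZ6438 inhibits EZH2, the catalytic subunit of Polycomb repressive complex 2 (PRC2), which methylates histone H3 at lysine 27 and keeps developmental genes silent.

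Values are log2 intensity after background correction and quantile normalisation by the authors, and a probe was taken as detected on an array where the scanner software marked it well above background. The arrays held 25908 to 40428 detected probes in the untreated series and 24504 to 34816 in the EPZ6438 series. ESC and d6 G+H+ cells carried the markers of their labels. Gsc rose from 4.96 in ESC, where no array was above background, to 13.32 in d6 G+H+, and Hhex from 7.51 to 12.63. All 7 ADE markers listed (Hhex, Cer1, Sox17, Foxa2, Foxa1, Sfrp5 and Otx2) were higher in d6 G+H+ than in ESC, and 7 of 8 pluripotency genes were lower. A difference was called where a probe passed an adjusted p of 0.01 and a log2 difference of 1.5 in a limma model over all arrays. Between G+H+ and G+H- of d6, 0 of the 7 ADE markers were called, Hhex among them. Gsc was called higher than ESC also in the G- cells of d3, d4 and d5. In these bulk samples, fewer cells of a type and less RNA per cell cannot be told apart.

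ZIC proteins are transcription factors with tandem C2H2 zinc fingers, closely related to those of the GLI and GLIS proteins, and can bind GLI-type DNA sites as well as GLI proteins themselves. In the mouse embryo they are known for roles in the epiblast, the neural plate, the dorsal neural tube, the neural crest, the somites and the cerebellum. Zic2 is needed for forebrain and neural tube formation, Zic1 and Zic4 act together in the cerebellum, and Zic5 acts in neural crest formation. The genes lie in head-to-head pairs, with Zic1 next to Zic4 on chromosome 9 and Zic5 next to Zic2 on chromosome 14.

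The promoters of Zic1, Zic4 and Zic5 are shown because the study blocked PRC2, which gathers at promoters rich in CG, and because Zic1 and Zic4 differed in this feature. The sequences are from RefSeq on build GRCm38.p6 and run over the 250 bases before the gene's start on the gene's own strand, with each CG in capitals. They lie at chr9:91365769-91366018 (minus strand), chr9:91368722-91368971 (plus strand) and chr14:122465659-122465908 (minus strand).
Zic1: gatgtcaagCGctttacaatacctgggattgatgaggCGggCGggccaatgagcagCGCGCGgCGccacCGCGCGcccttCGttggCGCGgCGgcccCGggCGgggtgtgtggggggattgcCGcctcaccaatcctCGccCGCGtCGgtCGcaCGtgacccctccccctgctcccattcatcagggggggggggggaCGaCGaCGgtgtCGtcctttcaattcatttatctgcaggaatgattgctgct
Zic4: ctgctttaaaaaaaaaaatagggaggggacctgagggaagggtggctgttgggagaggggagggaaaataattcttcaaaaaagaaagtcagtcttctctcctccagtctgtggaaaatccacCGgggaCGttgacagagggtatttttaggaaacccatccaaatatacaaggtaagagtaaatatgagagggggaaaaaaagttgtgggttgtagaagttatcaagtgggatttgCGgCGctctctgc
Zic5: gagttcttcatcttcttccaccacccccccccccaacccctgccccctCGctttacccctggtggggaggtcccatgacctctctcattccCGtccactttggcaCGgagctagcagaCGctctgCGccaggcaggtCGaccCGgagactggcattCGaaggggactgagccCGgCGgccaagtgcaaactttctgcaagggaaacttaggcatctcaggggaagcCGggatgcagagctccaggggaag

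The Zic1 window held 27 CG, a number reached by 8.56% of 32851 promoter windows of the same length. The Zic5 window held 11 CG, reached by 35.6% of windows, and the Zic4 window held 4, reached by 62.2%. G and C made up 66% of the Zic1 window, 62.4% of the Zic5 window and 44.4% of the Zic4 window. The letters CCAAT, searched on both strands, occurred 2 times in the Zic1 window and in 33.8% of all windows. They were found in neither of the other windows, and TATAAA, found in 12.4% of all windows on either strand, was in none of the 3 windows.

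Zic2 rose early and stayed high. Its probe, A_55_P1962523, was detected on all 42 arrays. In ESC the 3 arrays read 8.46, 6.30 and 7.38, and at d2 they read 8.48, 9.18 and 10.18. At d3 the G- arrays read 9.62, 10.23 and 9.72 and the G+ arrays 9.75, 11.83 and 10.97. All d2 and d3 arrays were above the highest ESC array, and the ESC arrays themselves spanned more than 2 log2 units.

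At d4 the Zic2 values were 10.41, 10.41 and 10.51 in G- and 9.54, 11.40 and 10.29 in G+. At d5 they were 8.86, 10.19 and 10.43 in G-, 8.89, 10.19 and 10.52 in Glow, and 10.62, 10.66 and 10.75 in Ghigh. At d6 the arrays read 9.60, 10.30 and 10.28 in G+H- and 9.22, 9.94 and 9.39 in G+H+. No differentiated array of any day came down to the level of ESC, and the Ghigh arrays of d5 lay close together while those of G- and Glow were spread more widely.

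Against ESC, Zic2 was called higher in 9 of 10 differentiated populations, with log2 differences among these from 2.13 ± 0.51 (SE) in d6 G+H+ to 3.47 ± 0.51 in d3 G+, an 11.1-fold rise (limma adjusted p = 3.18e-06). Of all RefSeq genes, 0.387% were called higher at d2, 1.13% in G- and 2.97% in G+ of d3, and 1.48% in G- and 3.13% in G+ of d4. At d5 these shares were 2.16% in G-, 3.61% in Glow and 3.68% in Ghigh, and at d6 they were 5.12% in G+H- and 5.85% in G+H+. At d2 the difference was 1.90 ± 0.51 and did not pass (limma adjusted p = 0.0177), but it passed with the slide as a random block (1.92, adjusted p = 0.00741) and with the replicate number as a block (1.90, adjusted p = 0.00627). In models of the compared groups alone, the calls of d3 G-, d5 G-, d5 Glow and d6 G+H+ were lost. Without ESC replicate 1, the highest of the ESC arrays, it passed at 2.44, and without ESC replicate 2, the lowest, the calls of d3 G-, d5 G- and d6 G+H+ were lost at differences of 1.93, 1.90 and 1.59. The call of d6 G+H+ was also lost without its replicate 2.

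On the probe A_51_P194230 Zic1 rose as early, but its level had fallen away in the sorted cells of d6. That probe was detected on 34 of 42 arrays. In ESC it read 5.19, 4.74 and 5.41 and was detected on the last of these alone, and at d2 it read 7.69, 7.38 and 7.91. All d2 arrays were detected and lay above the ESC arrays.

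At d3 this probe of Zic1 read 8.11, 6.90 and 6.97 in G- and 8.40, 7.33 and 7.37 in G+. At d4 it read 7.13, 7.94 and 6.69 in G- and 6.15, 7.89 and 6.91 in G+. At d5 it read 7.23, 7.01 and 6.66 in G-, 6.99, 7.54 and 6.30 in Glow and 6.29, 6.68 and 5.42 in Ghigh. The values of d3 to d5 overlapped from group to group, with Ghigh the lowest group mean (6.13 ± 0.64, SD, n = 3).

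In the sorted cells of d6 the probe was detected on 0 of 6 arrays, with 4.06, 4.18 and 4.92 in G+H- and 4.19, 4.80 and 4.64 in G+H+. All 6 lay below every array of d2 to d5, and they overlapped those of ESC. The order of the 14 group means ran from ADE_EPZ through d3 G+ and d2 down to d6 G+H-, and in 12 of 13 neighbouring pairs in that order the arrays overlapped. The pair that did not overlap was ES_EPZ and ESC.

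By the probe A_51_P194230, Zic1 was called higher than ESC at d2, in G- and G+ of d3 and d4, and in G- and Glow of d5, which makes 7 of 10 populations. The difference was 2.55 ± 0.42 (SE) at d2 and 2.59 ± 0.42 in d3 G+ (limma adjusted p = 9.17e-05 and 1.48e-05). The probe was above background on 1 of 3 ESC arrays, and over the alternatives these differences ran from 1.70 to 3.75 at d2 and from 1.74 to 3.77 in d3 G+, called in all 12. With a normexp offset of 50 the calls of d3 G- (1.45), d4 G- (1.38), d4 G+ (1.19), d5 G- (1.15) and d5 Glow (1.15) were lost, which left 2 of 10, and without background correction those of d4 G+ (1.39), d5 G- (1.35) and d5 Glow (1.35) were lost. In models of the compared groups alone, d3 G- and d4 G+ were lost. In d5 Ghigh the difference from ESC was 1.01 ± 0.42 (limma adjusted p = 0.0903), and its arrays on separate slides read differently, with 1.52 over replicates 1 and 2 and 0.01 in replicate 3. The call of d4 G+ was lost without its replicate 2 at 1.42, that of d5 G- without ESC replicate 2 at 1.67 and without its own replicate 1 at 1.72, and that of d5 Glow without ESC replicate 2 at 1.65 and without its own replicate 2 at 1.53.

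The other Zic1 probe, A_55_P2009774, gave a flatter course. It was detected on all 42 arrays and its group means spanned 1.58 log2 units, against 4.19 for A_51_P194230. It read 8.23, 7.99 and 8.22 in ESC, 8.99, 10.10 and 10.07 in d3 G+, 9.48, 9.25 and 9.72 in d5 Ghigh and 8.42, 9.0 and 9.01 in d6 G+H+. Every sorted d6 array remained above the ESC arrays on this probe, whereas on A_51_P194230 no sorted d6 array was detected.

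For A_55_P2009774, 1 of 10 differences from ESC was called, that of d3 G+ (1.58 ± 0.36, limma adjusted p = 0.00158). That call was lost without ESC replicate 2, d3 G+ replicate 2 or d3 G+ replicate 3, at differences of 1.498, 1.39 and 1.40. It was also lost with the slide as a fixed block (1.20) or as a random block (1.41), with an offset of 50 (1.45) and with replicates 1 and 2 alone (1.43). Over the 11 untreated group means, the 2 probes of Zic1 had a correlation of r = 0.23 with each other, while A_55_P2009774 had r = 0.88 with the Zic2 probe and A_51_P194230 had r = 0.91 with the Zic5 probe. Within groups, over the deviations of the 33 untreated arrays from their group means, the probes of Zic1 had r = -0.53. These correlations share the arrays and their slides and are descriptions. The transcript region that each probe matches was not analysed here, so any statement on Zic1 holds for the probe named.

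Zic5 had higher group means from d2 to d4 than in ESC or at d6, with a wide spread between experiments, and none of its differences from ESC was called. Its probe A_55_P2003693 was detected on 38 of 42 arrays. It read 7.04, 5.80 and 6.17 in ESC and 7.54, 7.44 and 7.83 at d2. At d3 it read 6.77, 7.13 and 7.80 in G- and 6.86, 8.17 and 8.21 in G+. All d2 arrays exceeded the ESC arrays, while in both sorted populations of d3 replicate 1 lay below the highest ESC array.

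At d4 Zic5 read 7.63, 7.20 and 7.76 in G- and 7.37, 7.77 and 7.96 in G+. At d5 it read 6.39, 7.05 and 8.17 in G-, 6.07, 6.52 and 7.63 in Glow and 6.60, 6.99 and 7.39 in Ghigh. At d6 it read 5.66, 6.09 and 6.53 in G+H- and 4.58, 5.34 and 6.18 in G+H+, with the last of these the only G+H+ array above background. Replicate 3 was the highest of the 3 arrays in 10 of 11 untreated groups, by a median of 0.66 log2 units over the mean of replicates 1 and 2, and it was hybridised on slides of its own. On the Zic1 probe A_55_P2009774 replicate 3 was the highest in 8 of 11 groups, on the Zic2 probe in 5 and on the Zic1 probe A_51_P194230 in 3. Experiment and slide cannot be told apart in these values.

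The Zic5 differences from ESC in the 10 populations ranged from 1.41 ± 0.42 in d3 G+ (limma adjusted p = 0.0148) and 1.27 ± 0.42 at d2 (adjusted p = 0.0643) down to -0.97 ± 0.42 in d6 G+H+ (adjusted p = 0.0946). Without ESC replicate 1, d3 G+ and d4 G+ passed at 1.76 and 1.71, and d3 G+ also passed without its own replicate 1 at 1.85. At d6 the difference of G+H+ from ESC was -1.46 over replicates 1 and 2 and 0.01 in replicate 3.

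Zic4 was at or near background in every population. Its probe A_55_P2152637 was detected on 11 of 42 arrays and its probe A_52_P502228 on 1. On the first, the highest arrays were d2 replicate 2 (6.89), ESC replicate 1 (6.36), ES_EPZ replicate 1 (6.33) and ADE_EPZ replicate 1 (5.97). The other arrays of those groups lay between 4.67 and 5.49, and ES_EPZ was the only group with all 3 arrays above background. On the second, group means lay between 4.06 and 4.98. No Zic4 difference was called in any comparison, while its neighbour Zic1 was detected on every array of d2 to d5 by both of its probes.

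**Figure D1:**
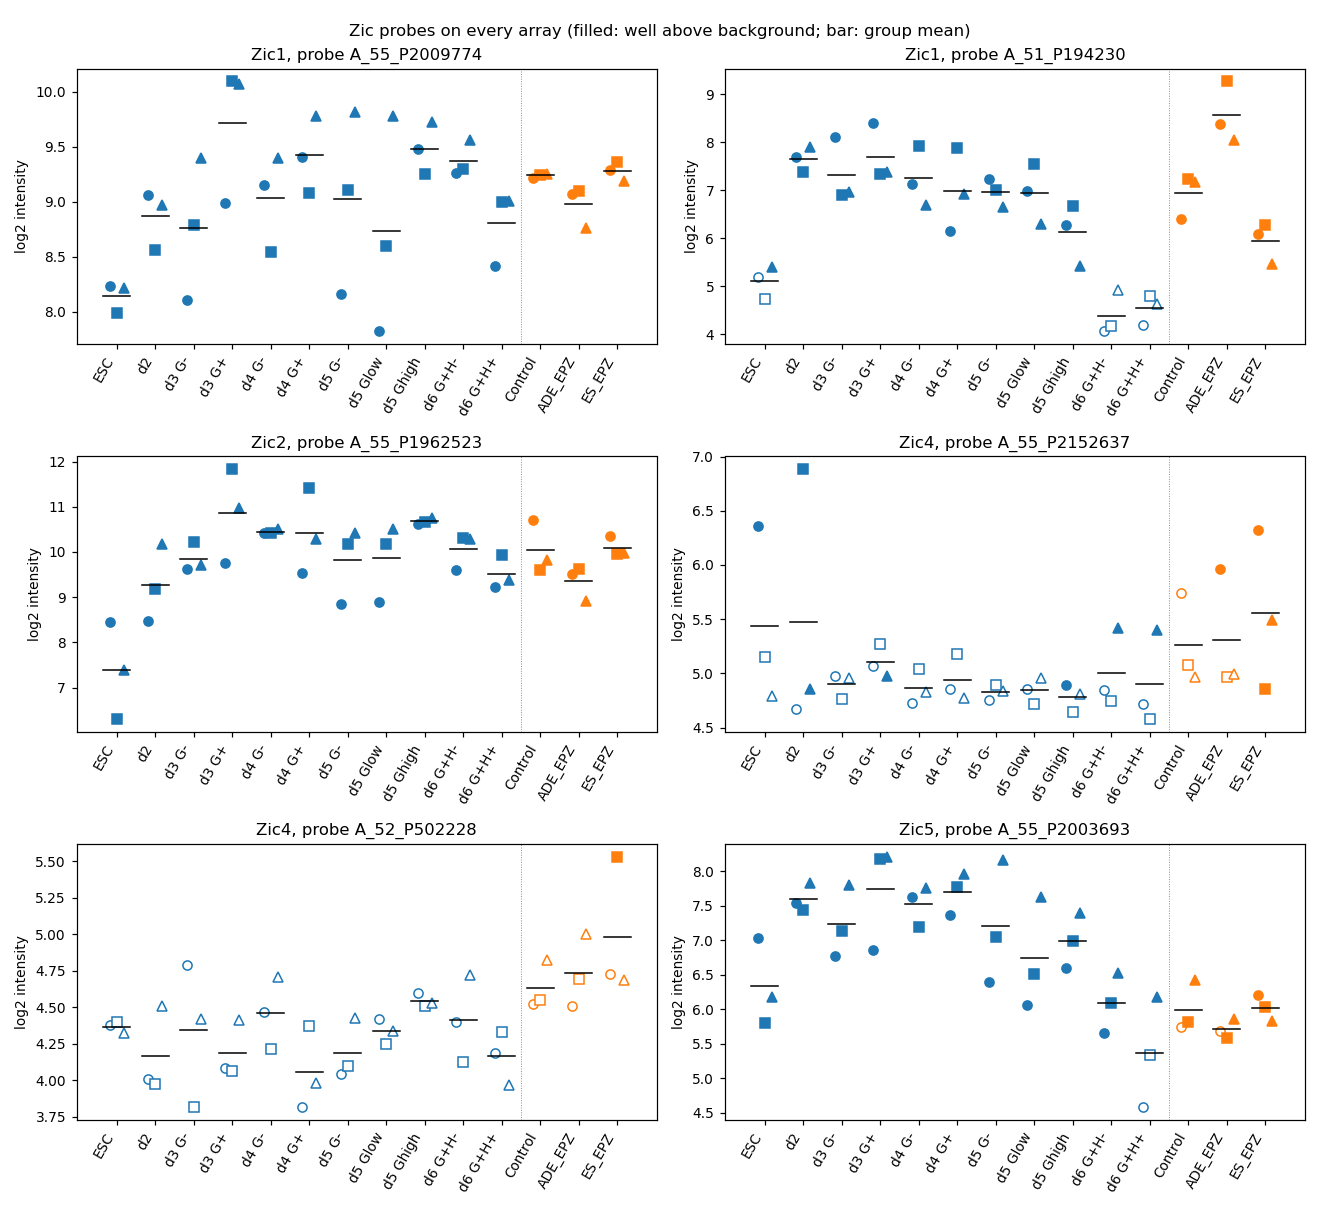
Log2 intensity (y axis) of the 6 probes of Zic1, Zic2, Zic4 and Zic5 on each array, by group (x axis), with the untreated series in blue and the EPZ6438 series in orange. Circles, squares and triangles are replicates 1, 2 and 3, filled symbols are well above background and bars are group means. Zic2 stays above its ESC arrays from d2, the Zic1 probe A_51_P194230 is open on all 6 sorted arrays of d6, and each panel has its own scale.

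**Figure D2:**
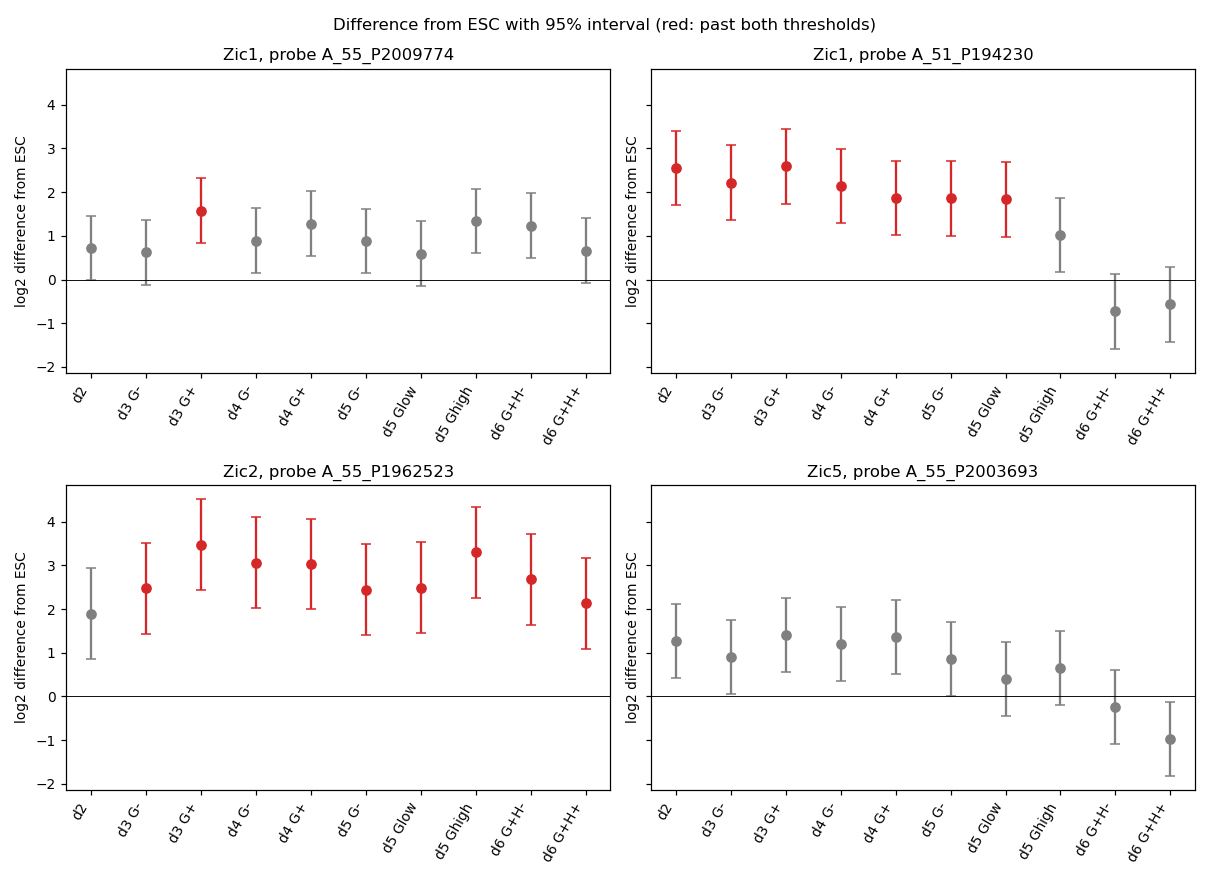
Log2 difference from ESC (y axis) in the 10 differentiated populations (x axis) for the probes of Zic1, Zic2 and Zic5, with 95% confidence intervals of the limma model and called differences in red. Zic2 is called in 9 populations and the Zic1 probe A_51_P194230 in 7, and Zic5 in none.

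The G+ populations were compared with the G- cells of the same day, at d5 as the mean of Glow and Ghigh. None of the 4 Zic genes was called at d3, d4 or d5, nor between Ghigh and Glow of d5, while 1.85%, 2.28%, 1.67% and 0.27% of RefSeq genes were called in these 4 comparisons. Of 24 comparisons over the 6 probes, 2 had an unadjusted p under 0.05 in limma. These were A_55_P2009774 of Zic1 at d3, at 0.96 ± 0.36 (adjusted p = 0.177) and higher in 8 of 9 pairs of arrays, and the same probe between Ghigh and Glow, at 0.75 ± 0.36 (adjusted p = 0.544).

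The intervals of these differences were wide. At d3 the Zic2 difference of G+ from G- was 1.00, with a 95% interval from -0.04 to 2.04, and at d4 it was -0.03, from -1.07 to 1.01. A 2-fold higher level of Zic2 in G+ therefore lay within both intervals. For Zic1 by A_51_P194230 the difference was 0.37 at d3 (-0.48 to 1.22), -0.26 at d4 (-1.12 to 0.59) and -0.43 at d5 (-1.17 to 0.31). For Zic5 it was 0.51 at d3 (-0.34 to 1.36), 0.17 at d4 (-0.68 to 1.02) and -0.34 at d5 (-1.07 to 0.40).

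Between Ghigh and Glow of d5, the 2 probes of Zic1 moved in opposite directions, by 0.75 for A_55_P2009774 and by -0.82 ± 0.42 for A_51_P194230, and neither passed the test (limma adjusted p = 0.544 and 0.584). Zic2 was higher in Ghigh on 9 of 9 pairs of arrays, at 0.81 ± 0.51 (limma adjusted p = 0.726). Whether the effect of the sort shifted from d3 to d4 or from d4 to d5 was tested as an interaction, which was called for none of the 4 genes. In limma 1 of 12 interactions had an unadjusted p under 0.05, that of the dim Zic4 probe A_52_P502228 from d4 to d5 (0.66, adjusted p = 1). Of all RefSeq genes, 0% were called from d3 to d4 and 0.0045% from d4 to d5.

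From d5 Ghigh to d6, falls were called for Zic1 on 1 of its 2 probes and for Zic5. By A_51_P194230, Zic1 fell by 1.74 ± 0.42 to G+H- and by 1.59 ± 0.42 to G+H+ (limma adjusted p = 0.00682 and 0.00798), with every sorted d6 array below every Ghigh array. As no d6 array was above background, the folds are bounded by detection, at 2.95-fold lower in G+H- and 2.67-fold lower in G+H+. The bounds set the Ghigh mean against the dimmest detected probes of each d6 array, or the probe itself where it was brighter. They leave out the spread between arrays and the choice of processing, so smaller folds are not excluded. The limma confidence intervals of the log2 differences reached -0.89 for G+H- and -0.73 for G+H+. Zic5 fell by 1.63 ± 0.42 from Ghigh to G+H+ (limma adjusted p = 0.00611), where it was above background on 1 of 3 G+H+ arrays, and to G+H- its difference was -0.90 ± 0.42 (adjusted p = 0.262).

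In the step to G+H- 0.779% of RefSeq genes were called lower, and in the step to G+H+ 1.45%. The Zic2 difference was -0.62 ± 0.51 to G+H- and -1.16 ± 0.51 to G+H+ (limma adjusted p = 0.688 and 0.147). The Zic1 probe A_55_P2009774 differed by -0.11 ± 0.36 and -0.68 ± 0.36 (limma adjusted p = 0.972 and 0.263). Thus the 2 probes of Zic1 gave unlike changes in the step to G+H-, a difference between probes that has no test here.

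These falls were near the threshold. For Zic1 by A_51_P194230 the step to G+H- was -2.36 over replicates 1 and 2 and -0.50 in replicate 3, and the step to G+H+ was -1.99 and -0.78. The call of the step to G+H- was lost without Ghigh replicate 1 or 2 or without G+H- replicate 1 or 2, and that of the step to G+H+ was lost without any 1 of Ghigh replicates 1 and 2 and of the 3 G+H+ arrays. The Zic5 call was lost without Ghigh replicate 2 or 3 or without G+H+ replicate 1 or 2. Over the alternatives the step of Zic1 to G+H- ran from -3.84 to -0.89 and was called in 9 of 12, its step to G+H+ ran from -3.72 to -0.84 and was called in 6 of 12, and the step of Zic5 to G+H+ ran from -2.92 to -1.02 and was called in 9 of 13. All 3 calls were lost with an offset of 50 (-0.89, -0.84 and -1.02) and without background correction (-1.13, -1.02 and -1.20), and that of Zic1 in G+H+ was lost with the slide as a fixed block (-1.28, limma adjusted p = 0.0561) or a random block (-1.44, adjusted p = 0.0128). Between G+H+ and G+H- no member was called, as for 0% of RefSeq genes, and 0 of 6 probes had an unadjusted p under 0.05 in limma.

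**Figure D3:**
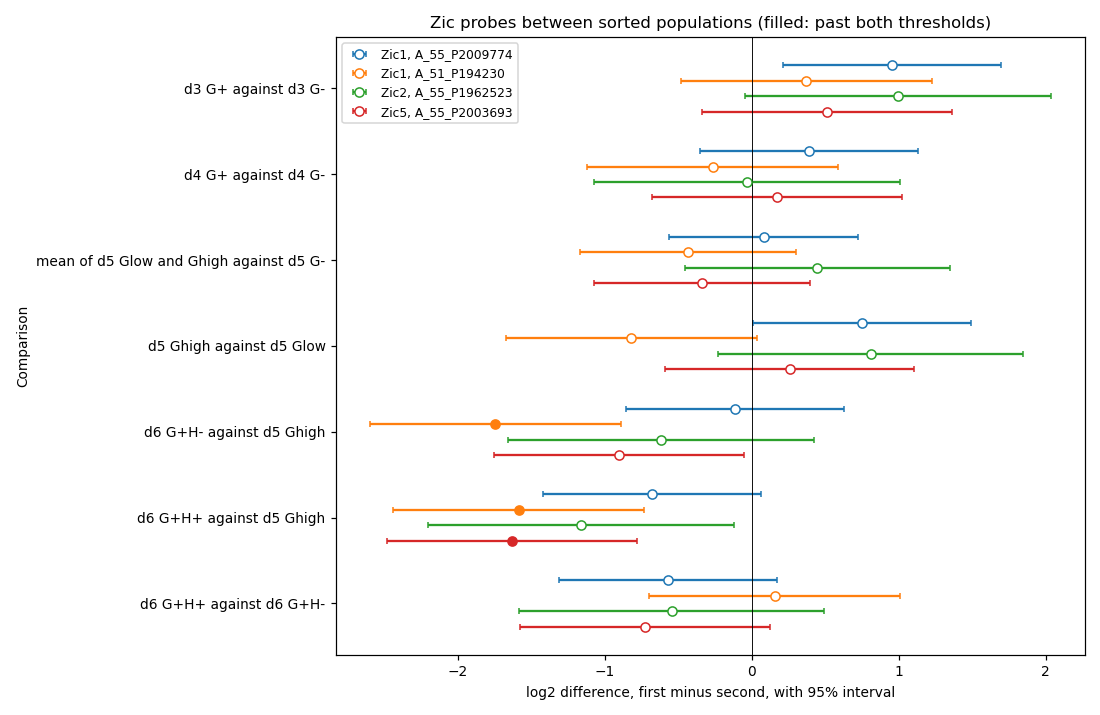
Log2 difference (x axis, first population minus second) of the probes of Zic1, Zic2 and Zic5 in the 7 comparisons between sorted populations (y axis), with 95% confidence intervals of the limma model and filled symbols for called differences. Before d6 the intervals include 0 except those of A_55_P2009774 of Zic1 at d3 and between Ghigh and Glow, and the called falls are those of Zic1 by A_51_P194230 and of Zic5 from d5 Ghigh to d6.

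In cultures given EPZ6438 during differentiation, Zic1 rose on 1 of its 2 probes and the other Zic genes were not called. A_51_P194230 read 6.41, 7.25 and 7.18 in Control, 8.37, 9.28 and 8.05 in ADE_EPZ and 6.09, 6.28 and 5.47 in ES_EPZ. The 3 regimens did not overlap on this probe, with ADE_EPZ the highest and ES_EPZ the lowest, and all 9 arrays were above background. ADE_EPZ had the highest mean of all 14 groups (8.57 ± 0.64, SD, n = 3).

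The rise from Control to ADE_EPZ was 1.62 ± 0.42 (SE) or 3.08-fold (limma adjusted p = 0.00839), in a comparison that called 1.95% of RefSeq genes higher. Against ES_EPZ, ADE_EPZ was higher by 2.62 ± 0.42 or 6.16-fold (limma adjusted p = 0.00077), where 0.117% of RefSeq genes were called higher. ES_EPZ differed from Control by -1.0 ± 0.42, lower in 9 of 9 pairs of arrays but not called (limma adjusted p = 0.273). In that comparison 0.437% of RefSeq genes were called in either direction.

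Each of the 3 slides of this series carried 1 array of every regimen. Within slides, ADE_EPZ exceeded Control by 0.81, 1.19 and 2.87 on A_51_P194230 and exceeded ES_EPZ by 2.58, 2.29 and 3.00. On the same probe ES_EPZ differed from Control by -1.77, -1.10 and -0.12. The difference of 2.87 was on the slide of Control replicate 1, the array with the fewest detected probes of this series (24504). Whether this bears on the difference was not tested. The call against Control was lost without any 1 of the Control arrays and without ADE_EPZ replicate 1 or 2, with differences from 1.27 to 1.88 over the 6 arrays left out in turn, and the call against ES_EPZ was lost without ADE_EPZ replicate 2 (2.27). Over the alternatives the call against Control was kept in 5 of 11 and the call against ES_EPZ in 9 of 11. In a model of the arrays of this series alone, neither passed (limma adjusted p = 0.0128 and 0.0127).

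The second Zic1 probe did not follow. A_55_P2009774 read 9.21, 9.25 and 9.26 in Control, 9.07, 9.10 and 8.77 in ADE_EPZ and 9.29, 9.36 and 9.19 in ES_EPZ. Its difference of ADE_EPZ from Control was -0.26 ± 0.36, with a 95% interval from -1.0 to 0.48, so that the rise seen on the other probe lay outside the interval of this one.

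Zic2 read 10.71, 9.60 and 9.83 in Control, 9.51, 9.63 and 8.93 in ADE_EPZ and 10.35, 9.96 and 9.98 in ES_EPZ. It differed by -0.69 ± 0.51 in ADE_EPZ and by 0.05 ± 0.51 in ES_EPZ from Control (limma adjusted p = 0.54 and 0.991). Zic5 read 5.74, 5.81 and 6.42 in Control, 5.69, 5.59 and 5.86 in ADE_EPZ and 6.21, 6.03 and 5.83 in ES_EPZ. Its differences from Control were -0.28 ± 0.42 and 0.03 ± 0.42 (limma adjusted p = 0.846 and 0.993), and all regimens overlapped on it.

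The Control cultures were not set against the sorted d6 cells in a test, since no slide held both series and the labels give Control no sort, so that slide, sort and solvent cannot be told apart. Side by side, A_51_P194230 of Zic1 had a mean of 6.95 in Control and of 4.38 and 4.54 in the 2 d6 sorted populations, and Zic5 had 5.99 beside 6.09 and 5.37.

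**Figure D4:**
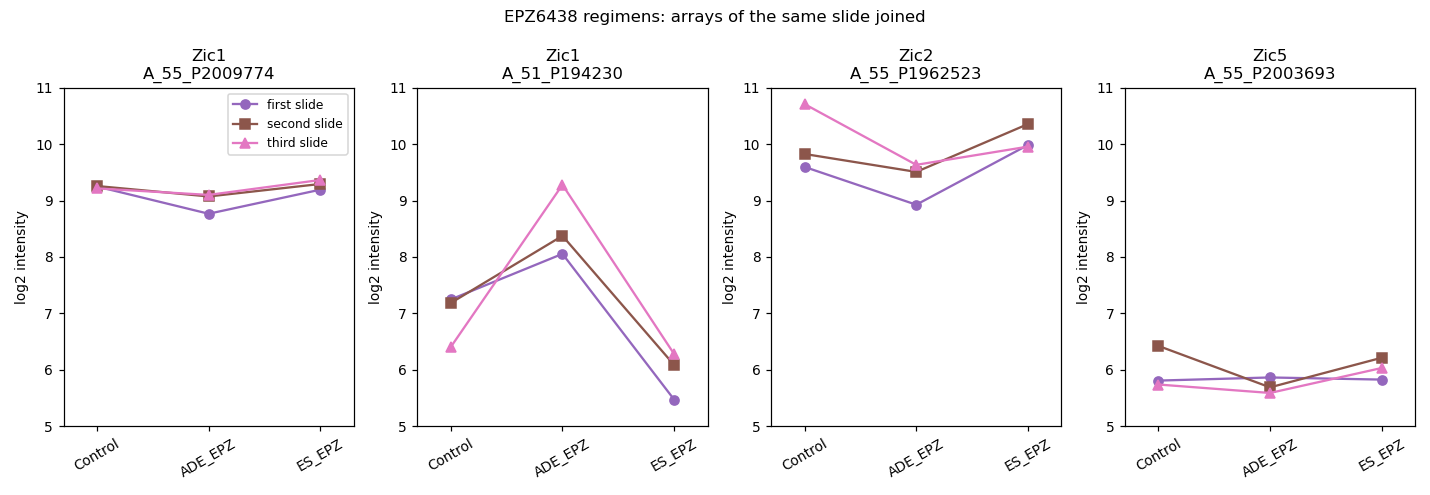
Log2 intensity (y axis) of the probes of Zic1, Zic2 and Zic5 in the Control, ADE_EPZ and ES_EPZ regimens (x axis), with lines joining arrays of the same slide. On A_51_P194230 of Zic1 the ADE_EPZ array is the highest on each slide, by 0.81, 1.19 and 2.87 over Control, and on the other probes the lines are flatter; levels of different probes are not comparable.

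The listed genes were compared in the same regimens. Mapk10, a neuronal stress kinase, Nrn1, a neurite-promoting surface protein, and Cpe, a neuropeptide-processing enzyme, were named by the study beside Zic1. The study took them from genes that rose with the inhibitor on these arrays and kept the Polycomb histone mark throughout differentiation. It named them with Zic1 for their rise in separate data on differentiation to neural progenitors. The rise of Zic1 and of these genes in ADE_EPZ is therefore not evidence independent of the study. All 3 rose in ADE_EPZ against Control, Nrn1 by 2.05 ± 0.29 and Cpe by 1.90 ± 0.40 (limma adjusted p = 1.14e-05 and 0.00129), while Mapk10 was above background on 0 of 3 Control arrays and on 3 of 3 ADE_EPZ arrays (limma adjusted p = 8.41e-05). None of the 3 was called in ES_EPZ against Control, with differences of 0.11 for Nrn1 and 1.33 for Cpe.

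Of 7 neurectoderm markers (Pax6, Six3, Sox1, Wnt1, Tubb3, Nes and Sox2), none was called in ADE_EPZ against Control, and the median difference was -0.04, against -0.01 over all RefSeq probes. Their mean level ran from 6.97 to 7.57 over the Control arrays, from 7.16 to 7.55 in ADE_EPZ and from 7.14 to 7.58 in ES_EPZ. In Control and in ADE_EPZ, 5 of the 7 genes were above background on all arrays. Pax6, a defining gene of the list, had a mean of 5.04 in Control and 5.16 in ADE_EPZ. These means were close to those of the Zic4 probe A_55_P2152637 (5.26 and 5.31), which was detected on 0 of 3 and 1 of 3 arrays. A change so near background may not show. Of 15 genes of the dorsal neural tube and neural crest, Pax3 rose by 2.08 ± 0.47 and Msx2 fell by 3.45 ± 0.66 (limma adjusted p = 0.00278 and 0.000433), with a median of -0.09. Of 9 paraxial mesoderm genes 1 fell, Meox1, and none rose.

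Among the ADE markers, Hhex and Sfrp5, a secreted Wnt antagonist of anterior endoderm, rose in ADE_EPZ against Control by 2.23 ± 0.40 and 1.61 ± 0.41 (limma adjusted p = 0.000217 and 0.00779). The mean level of the 7 genes ran from 12.34 to 12.73 over the Control arrays, from 13.75 to 14.08 in ADE_EPZ and from 13.26 to 13.72 in ES_EPZ. All 7 were above background on all arrays of the 3 regimens, and the part of the endoderm markers in the Zic1 values was not tested. Of the 8 pluripotency genes Zfp42 rose by 1.51 ± 0.34 and Tbx3 fell by 3.34 ± 0.71 (limma adjusted p = 0.00231 and 0.00137). Of the 6 primitive streak genes, Mixl1 fell by 3.34 ± 0.34 (adjusted p = 1.24e-07) and Eomes was called lower by one of its probes. Of the 5 primed epiblast genes none was called.

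At d2 and d3, where Zic1 was called higher than ESC by A_51_P194230, 0 of 7 neurectoderm markers were called higher. At d4, where the same probe was called, Nes, an intermediate filament of neural progenitors, was called higher in G- and in G+. Its differences were 1.80 ± 0.38 and 1.51 ± 0.38 (limma adjusted p = 0.000908 and 0.003). Pax6 and Sox2 were called lower in d4 G-, and Pax6, Tubb3 and Sox2 were called lower in d4 G+. In d6 G+H+ Six3 was called higher, while Pax6, Tubb3 and Sox2 were called lower. The medians of the list were -0.43 in d4 G-, -0.20 in d4 G+ and -0.49 in d6 G+H+. At d2 the neurectoderm list had a median difference from ESC of 0.04, and in d3 G+ Pax6, Tubb3 and Sox2 were lower and the median was -0.29. Of the 6 primitive streak genes, 2 were higher at d2, 5 in d3 G- and all 6 in d3 G+. Of the 15 genes of the dorsal neural tube and neural crest, Msx1, Msx2 and Sox9 were higher and Foxd3 was lower in d3 G+.

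The GLI and GLIS genes, whose zinc fingers are kin to those of the ZIC proteins, were followed with the parts of the hedgehog pathway as a list of 13. From d5 Ghigh to d6 G+H+, Zic1 by A_51_P194230 and Zic5 were called lower. In that step Gli1, Gli2, Gli3 and Glis1 fell by 2.36 ± 0.37, 2.49 ± 0.25, 1.94 ± 0.31 and 2.27 ± 0.35 (limma adjusted p of at most 2.81e-05) and no gene of the list rose. Gli2 was above background on 1 of 3 G+H+ arrays. The median of the list was -0.35, against -0.02 over all RefSeq probes. To G+H-, 2 genes fell, Gli2 and Glis1, by 1.77 ± 0.25 and 1.72 ± 0.35.

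In ADE_EPZ against Control, where Zic1 rose by A_51_P194230, 3 genes of the list fell, Gli1 by 1.76 ± 0.37, Gli2 by 2.08 ± 0.25 and Glis1 by 1.87 ± 0.35 (limma adjusted p = 0.0011, 1.18e-06 and 0.000382). Gli3 differed by -1.01 ± 0.31 (limma adjusted p = 0.0299). The median of the list was -0.49, against -0.01 over all RefSeq probes. The share of RefSeq genes called lower in ADE_EPZ than in Control is not given here. The falls counted in this list and in the marker lists therefore have no such share beside them. None of the 13 was called in ES_EPZ against Control, where Gli2 differed by -1.30 ± 0.25 (limma adjusted p = 0.00437). In d3 G+ against G- and in d4 G+ against G-, comparisons in which no Zic gene was called, Glis1 was the gene of the list called higher.

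**Figure D5:**
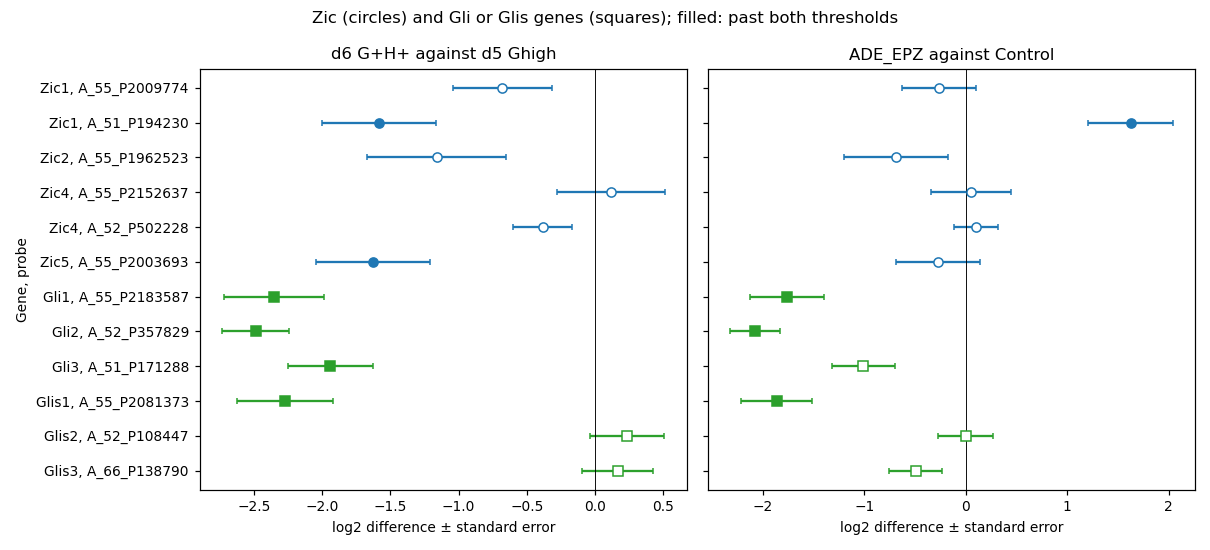
Log2 difference with its standard error (x axis) of the Zic probes (circles) and of Gli1 to Gli3 and Glis1 to Glis3 by their brightest probes (squares) from d5 Ghigh to d6 G+H+ and from Control to ADE_EPZ, with filled symbols for called differences. Gli1, Gli2 and Glis1 fell in both, while Zic1 by A_51_P194230 fell in the first and rose in the second. The other Zic1 probe, A_55_P2009774, was called in neither (-0.68 and -0.26).

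The RefSeq genes whose 11 untreated group means ran most like a Zic probe were sought among 4873 genes that spanned at least 1.5 log2 units. For A_51_P194230 of Zic1 these were Lef1, a transcription factor of the Wnt pathway (r = 0.99), Bcl11a, a zinc finger repressor (r = 0.97), and Phf6 (r = 0.97). For Zic5 they were Bcl11a (r = 0.98), Pes1, a factor of ribosome assembly (r = 0.96), and Lef1 (r = 0.95). Thus Lef1 and Bcl11a were among the 3 most alike for both. For Zic2 they were Evx1, a homeobox gene of the primitive streak (r = 0.96), Pphln1 (r = 0.95) and Hsd17b7, an enzyme of cholesterol synthesis (r = 0.93). For A_55_P2009774 of Zic1 they were Lzts1 (r = 0.88), Zic2 itself (r = 0.88) and Dpy19l3 (r = 0.88). For the dim A_55_P2152637 of Zic4 they were Psma8, Pax6 and Stra8 (r = 0.95, 0.94 and 0.92), over group means that spanned 0.78 log2 units and that single arrays of ESC and d2 raised. Each was among the highest of all correlations computed over the same arrays and is given as a description.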

How the data were processed

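RNA of 14 groups with 3 arrays each was measured on Agilent one-colour arrays. The authors deposited a scanner file for each array (Feature Extraction 11.0.1.1, probe grid of build mm9), with median foreground and background intensity and marks for outliers, saturation and detection, and a table of log2 intensity made with limma by averaging duplicate spots, correcting the background by normexp (offset 10) and quantile normalisation. That log2 table was analysed. It had a correlation of at least 0.99998 with values recomputed from the deposited intensity on all 42 arrays, and no spot was saturated. Spots of a probe were averaged. The number of arrays limits the precision, and the dimmest probes give changes that are too small.

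Genes are RefSeq accessions, named through a table of assembly GRCm38.p6, which held 21850 of 22201. All arrays entered a single limma 3.58.1 model in R 4.3.3 that gave each group its own mean, with Benjamini-Hochberg adjustment over 55681 probes. Calls needed an adjusted p of at most 0.01 and a log2 difference of at least 1.5, the thresholds of the study, and a gene was called with any probe. Intervals are of 95%. Pairs of arrays set each array of a group against each array of the other, so they are neither matched nor independent. The procedure was tested on simulated data.

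All probes of the 4 genes are named. For the lists, genes are named where called or defining, and values are those of the brightest probe. The members and lists were chosen with earlier results of these data known. Bound folds compare group means on the log2 scale. Replicates 1 and 2 of the untreated groups lay on 3 slides, replicate 3 on 2 others and the EPZ6438 series on 3 more. Alternatives changed the background correction, scaling, probes, arrays fitted and slide or replicate blocks, and left out each array in turn.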

Additional observations from a re-analysis of the deposited data

Results flagged for a closer look

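The Zic1 probe A_51_P194230 differed between the EPZ6438 regimens. Its level was higher in ADE_EPZ than in ES_EPZ by 2.62 ± 0.42 on the log2 scale (limma adjusted p = 0.00077), which is the test of the difference between the effects of the inhibitor given during and before differentiation. With each array set against each Control array, the probe was higher in 9 of 9 pairs in ADE_EPZ and lower in 9 of 9 pairs in ES_EPZ. The second of these differences was not called. The other probe of Zic1 differed by -0.30 ± 0.36 between the regimens (limma adjusted p = 0.983). Groups of 3 arrays were not searched for outlying arrays.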

How the results depend on the processing

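Counted as genes called per comparison, the main numbers were 16 against ESC, 0 for G+ against G-, 3 for the steps to d6, 2 for the EPZ6438 regimens and 0 for the interactions. All 405 recomputed values of the called differences kept their sign, and the 2 counts of 0 were 0 under every alternative run. The steps to d6 gave 0 with an offset of 50, 0 without background correction, 1 in a model of the untreated arrays, 0 with the compared groups alone and 1 with the brightest probe of each gene, which for Zic1 leaves out A_51_P194230. The EPZ6438 regimens gave 1 with an offset of 50, without background correction, with 75th percentile scaling and with quantile normalisation within each series, and 0 in a model of that series, of the compared groups or of the brightest probes. The count against ESC was 10 with the compared groups alone and 10 with the brightest probes. With 75th percentile scaling Zic1 by A_51_P194230 was also called lower at d6 than in ESC (-2.09 in G+H- and -1.96 in G+H+), where it was not above background. Leaving out 1 array at a time gave 11 to 19 calls against ESC, 0 to 3 for the steps to d6, 0 to 2 for the regimens and 0 otherwise. The cause of these changes was not tested.

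With the replicate number as a block the counts were 17, 0, 3, 2 and 0, and Zic2 at d2 passed (1.90, limma adjusted p = 0.00627). The labels tie the numbers to no shared batch, and not every pair passed the limit set for pairing: the deviations of same-numbered arrays of 2 groups had a correlation over 0.1 in 125 of 165 pairs of the untreated series and 6 of 9 of the EPZ6438 series, and 24 of 33 and 8 of 9 arrays deviated most like those of their own number, a hint from the data that numbers share some structure. With the slide as a fixed block the counts were 16, 0, 2, 2 and 0, and as a random block 17, 0, 2, 2 and 0. With untreated replicates 1 and 2 alone, an alternative chosen after seeing the data, 12 calls against ESC and 3 in the steps to d6 were made. Depth is not defined for arrays. Signal near background limits what can be said of Zic4 in all groups and of Zic1 by A_51_P194230 in ESC and the sorted cells of d6.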

Other observations

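Arrays of the same group that stood high for one Zic probe often stood high for another. Over the deviations of the 33 untreated arrays from their group means, Zic5 had r = 0.84 with the Zic1 probe A_55_P2009774 and r = 0.67 with Zic2, and Zic2 had r = 0.51 with A_55_P2009774. The Zic1 probe A_51_P194230 did not share this, with r = -0.28 to Zic5 and 0.05 to Zic2, although its group means ran like those of Zic5. These values share arrays and slides and are a description without a test.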
